A study of Salmo salar with 79 samples.

Results

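High fish density (HFD) was compared with control density in wounded skin of Atlantic salmon at 7 days post wounding (dpw). The comparison used 10 of the 79 arrays of the series, 5 HFD fish and 5 control fish, which were taken by their labels for treatment and day and by no measured value. HFD fish were stocked at 100 kg/m3 and control fish at 20 kg/m3. By the study's account, density was not held at these values: it rose in the HFD tank and declined in the control tank. Water flow was higher in the HFD tank, and equal per kg of fish at the start. Both groups were seawater post-smolts on commercial feed, with skin wounds made by a biopsy punch. Each treatment had a tank of its own, so tank and treatment cannot be told apart. Strain and age were not given in the sources used here, and the labels say nothing of any gene modification. RNA came from a piece of the skin that held the wound. In such bulk tissue fewer cells of a type and less RNA per cell cannot be told apart.

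Salmon skin is a living epidermis with mucous cells at its surface, above a dermis rich in collagen. After a deep wound, sheets of epidermal cells migrate over the gap, neutrophils and macrophages enter, and new tissue then fills the wound bed while the dermis is rebuilt. Matrix metalloproteinases cut the proteins of the matrix and clear a path for cells. Chemokines attract leukocytes, lipid mediators such as prostaglandins and leukotrienes set the course of inflammation, and mucus is the barrier towards water.

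Transcription was measured on a single-colour array with 14841 probes after control spots were left out. Levels are log2 of the processed signal relative to the 75th percentile of the same array, so that 0 is a fairly bright probe and a difference of 1 is a doubling. That percentile lay at intensities of 660.0 to 881.1 on the HFD arrays and 832.2 to 1066 on the control arrays, and no spot was saturated. Between 83.1% and 91.8% of probes were well above background on each array. Probes that were well above background on 5 or more of the 10 arrays were tested, which left 13065 probes, and the number of arrays limits the precision. The words rose and fell are used below for probes past the criteria of the study, a log2 difference beyond 0.8 with an unadjusted p under 0.05, here from limma. The fish of a group shared 1 tank, so p-values measure the spread between fish of 1 tank.

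Fish within a group were not equally typical. Among the 563 probes that passed and were measured in all 10 fish, HFD fish 3 lay nearer the control mean in 198 probes (35.2%), and control fish 4 lay nearer the HFD mean in 203 (36.1%). The other fish did so in 2.49% to 21.5%. Results are therefore also given without these fish, a choice made after their values were seen that itself widens the differences. HFD fish 1 and control fish 5 were hybridised on the same slide. Each of the other slides held 7 dpw fish of only 1 group, beside arrays of other days.

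At 7 dpw, 204 probes rose in HFD wounds (1.56% of those tested) and 363 fell (2.78%), together 567 probes or 4.34%. Thus 36.0% of the probes that passed were higher in HFD. The 95% Wilson interval of 32.1 to 40.0% covers counting error only and treats probes as independent. The probes share their fish, so the interval does not give the uncertainty of the share. With each fish left out, the share was 31.3% (without control fish 2) to 49.5% (without control fish 3). Differences reached from -3.58 to 2.73 on the log2 scale. Of the probes with a difference beyond 2, 53 fell and 6 rose. The median over all probes tested was 0.03. After Benjamini-Hochberg adjustment in limma, 11 probes passed (0.0842%), 3 higher and 8 lower, whereas 2250 probes had an unadjusted p under 0.05. Without HFD fish 3 and control fish 4, 402 probes rose and 397 fell, and 297 passed after adjustment, among them all 11. The excess of lower probes was thus not seen without these fish. They were picked because they lay towards the other group on probes that passed, so the larger counts are not an independent check. With slide as a fixed block, which leaves the shared slide as the only comparison of the groups, 498 probes passed and 68.9% of them were higher, none after adjustment.

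The groups did not overlap for 571 of 12994 probes measured in every fish (4.39%), with all HFD fish above in 272 (2.09%) and below in 299 (2.3%). Of the probes past the criteria, 44 that rose and 115 that fell had no overlap. On the shared slide, HFD fish 1 differed from control fish 5 in the direction of the groups for 553 of 564 such probes (98.0%). These fish are part of the groups, so this is not an independent repeat.

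A set of the lower probes followed control fish 1. Of 361 probes that fell and were measured in all fish, 43 (11.9%) had control fish 1 highest by more than 1 on the log2 scale, against 0.693% of all probes measured, and control fish 4 was second in 39 of these. Reverse transcriptase (Ssa#EG806254), with a difference of -2.73, and an envelope protein (Ssa#S30297156), with -2.37, both sequences of retroelements, were among them. In intact skin 37 of those 39 probes had a positive difference. Without control fish 1, 147 probes rose and 282 fell.

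Names were taken from the supplementary gene list of the study, which was chosen on these arrays, so their counts are not independent evidence of a direction. Of 767 named probes tested, 114 rose (14.9%) and 151 fell (19.7%), together 34.6%, and the median difference over named probes was 0.12. The other 302 probes that passed had no name. The groups of genes below are read against these shares.

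**Figure D1:**
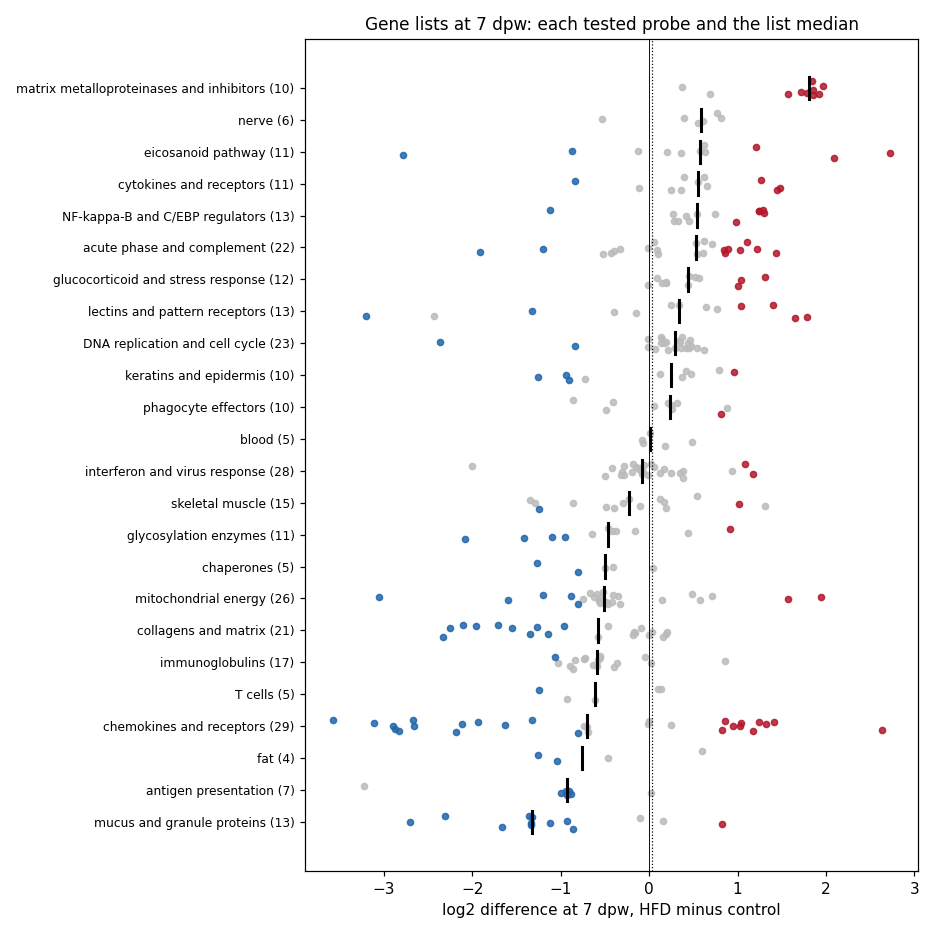
Log2 difference at 7 dpw (HFD minus control, 5 fish each) of each tested probe in 24 gene lists, ordered by list median, with the number of probes in brackets. Red points rose, blue points fell, grey points did not pass, black bars are list medians and the dotted line is the median over all probes, 0.03. Matrix metalloproteinases lie highest, with a median of 1.81, and mucus and granule proteins lowest, with -1.33.

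Matrix metalloproteinases formed the group furthest above the median of all probes. Of 10 probes 8 rose and none fell, with a median of 1.81. All 4 probes for mmp9, a gelatinase of neutrophils and macrophages, and all 3 for mmp13, a collagenase also made by migrating epidermal and stromal cells, rose by 1.57 to 1.92, which is 2.97-fold to 3.79-fold.

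For mmp9 (Ssa#KSSb2780) HFD fish 1 to 5 had levels of 4.90, 5.23, 3.75, 5.27 and 5.03, and control fish 1 to 5 had 2.72, 3.15, 2.44, 4.27 and 2.67. The groups overlapped only because control fish 4 lay above HFD fish 3. The difference was 1.79 ± 0.39 (SE, n = 5 and 5), with an adjusted p of 0.087 in limma.

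For mmp13 (Ssa#GRASP209156091) the levels were 6.25, 6.51, 5.03, 6.54 and 6.16 in HFD fish and 4.02, 3.71, 4.00, 5.34 and 4.15 in control fish. Here too, the overlap came from these fish alone. The difference was 1.86 ± 0.36 (SE), adjusted p = 0.071 in limma. Without the pair, mmp9 and mmp13 differed by 2.15 to 2.50. A matrix metalloproteinase probe named without a number (Ssa#S25807320) rose by 1.97. Matrix metalloproteinase-25 (0.37) and the metalloproteinase inhibitor 2 precursor (0.69), an inhibitor of these enzymes, did not pass.

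Enzymes of lipid mediators moved in both directions, with 3 of 11 probes higher and 2 lower (5 and 2 without HFD fish 3 and control fish 4). Cytosolic phospholipase A2 gamma (Ssa#S35498112), of the enzyme family that releases fatty acids from membranes for eicosanoid synthesis, had the largest rise among all probes tested. Its levels were 0.79, -0.60, -0.95, -0.05 and 0.24 in HFD fish and -4.12, -1.99, -3.70, -2.17 and -2.22 in control fish. Every HFD fish was above every control fish. The difference was 2.73 ± 0.49 (SE), 6.62-fold, adjusted p = 0.071 in limma. Prostaglandin G/H synthase 2b, the inducible cyclooxygenase, rose by 2.09, and epidermis-type lipoxygenase 3 by 1.20.

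Lipocalin-type prostaglandin D synthase-like protein (Ssa#TC108704), named after an enzyme that makes prostaglandin D, fell by 2.79 or 6.89-fold. HFD fish 3 and 5, with levels of 0.93 and 1.28, were far above the other HFD fish at -0.73, -1.35 and -1.03, while control fish had 3.59, 2.11, 3.18, 1.25 and 2.91. The groups overlapped only between HFD fish 5 and control fish 4.

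In the leukotriene B4 pathway, a breakdown enzyme, leukotriene b4 12-hydroxydehydrogenase (Ssa#S18889767), fell by 0.87, with all HFD fish below all control fish. Cytochrome P450 4F3 (0.20), which the study also places in leukotriene B4 metabolism, did not pass. The genes for synthesis, leukotriene A-4 hydrolase (0.62), arachidonate 5-lipoxygenase-activating protein (0.58) and arachidonate 5-lipoxygenase (-0.12), did not pass, and neither did leukotriene B4 receptor 1 (0.36). Without HFD fish 3 and control fish 4, the hydrolase (0.82) and the activating protein (0.85) passed. Arachidonate 5-lipoxygenase (0.08), the receptor (0.72) and cytochrome P450 4F3 (0.42) did not.

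Among 11 probes of cytokines and their receptors 3 rose and 1 fell, with a median of 0.56, and 6 rose and 1 fell without HFD fish 3 and control fish 4. Interleukin-1 beta (Ssa#CL122Contig1), an early inflammatory cytokine, had levels of -3.43, -3.38, -5.47, -3.33 and -2.83 in HFD fish and -5.87, -5.45, -5.43, -3.59 and -5.50 in control fish. HFD fish 3 was at the level of the control fish and control fish 4 at that of the HFD fish. The difference of 1.48 ± 0.55 (SE) had an adjusted p of 0.208 in limma, and it was 2.32 without both fish. The probe for interleukin-1 beta 2 (Ssa#DR696039) was 0.56 and did not pass with all fish, but passed without both fish (0.97). The IL-6 subfamily member M17 rose by 1.45 and interleukin-11, a cytokine of the same receptor family, by 1.27. Interleukin-17 receptor A, which senses interleukin-17, fell by 0.84.

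Of 13 probes in a list matched by name for regulators of NF-kappa-B and C/EBP, transcription factors of inflammation, 5 rose and 1 fell. The 3 probes for C/EBP beta rose by 0.98 to 1.28. Both probes for TNF alpha induced protein 9, a metalloreductase of the STEAP family, rose, by 1.24 and 1.30. Adapter protein CIKS, which links the interleukin-17 receptor to NF-kappa-B, fell by 1.12. The 3 probes for NF-kappa-B inhibitor alpha ranged from 0.27 to 0.75 and did not pass.

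Plasma-type defence proteins rose in 7 of 22 probes tested and fell in 2. All 4 probes for serum amyloid A, an acute phase protein, rose by 0.85 to 1.44. In the probe Omy#S27585481 the HFD fish had 4.93, 4.03, 3.79, 4.10 and 4.31, and the control fish 1.59, 2.16, 4.27, 3.33 and 2.63. Control fish 3 was at the HFD level, and the adjusted p was 0.160 in limma. Haptoglobin, which binds free hemoglobin, rose by 0.86 and 0.89 on its 2 probes, and complement C3 by 1.11. Complement factor D (Omy#S19710761), a protease of the alternative pathway, fell by 1.20, and toxin-1 (Ssa#CK895788) by 1.92. The other probes for these genes, at -0.40 and -0.33 for complement factor D and -0.43 for toxin-1, did not pass. When HFD fish 3 and control fish 4 were left out, the first complement factor D probe (-1.03) and 1 haptoglobin probe (0.92) no longer passed the limit on p.

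The list of chemokines and their receptors, which also holds other leukocyte attractants and their receptors, had 10 of 29 probes higher and 13 lower. Among those higher were the probes for leukocyte cell-derived chemotaxin 2 and for the receptors of complement fragments C3a and C5a. These are not genes of chemokines or chemokine receptors, so the count of higher probes is not one of chemokine genes alone. All 10 probes for CCL20, CCL21 and CCL28 fell. In mammals CCL20 and CCL21 guide dendritic cells and lymphocytes, and CCL28 is made by mucosal epithelia. CCL20 fell on 4 probes by 2.11 to 3.58, or 4.33-fold to 11.9-fold.

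For CCL20 (Ssa#S35592814) the HFD fish had levels of -2.94, -3.89, -3.86, -3.09 and -3.46 and the control fish -1.25, -1.81, -0.64, -1.49 and -1.13. The groups were well apart, and HFD fish 3 and control fish 4 lay within the range of their own groups. The difference was -2.19 ± 0.26 (SE), with an adjusted p of 0.026 in limma. A second CCL20 probe (Omy#S22928835) also passed after adjustment, with -2.11 ± 0.30 (SE) and an adjusted p of 0.038.

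CCL28 (Ssa#S47730145) fell by 2.83, with levels of 1.54, -0.37, 2.51, 0.44 and 2.55 in HFD fish and 4.72, 4.38, 3.86, 2.96 and 4.90 in control fish. All HFD fish were below all control fish. CCL21 fell by 2.87 to 3.11 on 3 probes, but the HFD fish were divided. On the probe Ssa#TC109014 HFD fish 3 and 5 had 2.35 and 1.49, inside or near the control range of 1.596 to 3.53, whereas HFD fish 1, 2 and 4 had -0.93, -3.08 and -1.97. The adjusted p was 0.153 in limma.

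Macrophage inflammatory protein 2-alpha (Ssa#GRASP209731275), a chemokine that attracts neutrophils, rose by 2.63 or 6.20-fold, with levels of 1.56, 2.53, -1.28, 1.81 and 1.54 in HFD fish and -1.94, -2.28, -1.58, 0.30 and -1.49 in control fish. HFD fish 3 lay within the control range, and control fish 4 was the highest control fish. The IL-8 receptor, by which neutrophils sense such chemokines, rose by 1.41.

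Leukocyte cell-derived chemotaxin 2 (LECT2), a secreted attractant of neutrophils, rose on all 3 probes by 1.18 to 1.32. On Ssa#S48420174 the HFD fish had 1.04, 0.78, 0.39, 1.03 and 0.53 and the control fish -0.54, -0.67, -0.50, -0.10 and -0.65. No HFD fish overlapped with a control fish, and the difference of 1.24 ± 0.16 (SE) had an adjusted p of 0.038 in limma. C-X-C motif chemokine 14 rose by 0.82, C-C motif chemokine 13 fell by 1.32, and a CXCL10-like chemokine fell by 1.63.

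Of 13 lectins and pattern receptors 4 rose and 2 fell. C-type mannose-binding lectin (Ssa#TC104695), a sugar-binding protein of innate defence, fell by 3.20 or 9.20-fold. Its levels were -2.35, -3.02, -1.30, -3.32 and -2.01 in HFD fish and 1.39, -0.04, 1.68, 0.65 and 0.34 in control fish. The gap between the groups was larger than 1, with ± 0.44 (SE) and an adjusted p of 0.038 in limma. Rhamnose binding lectin STL1 fell by 1.33. Toll-like receptor 5 (Ssa#S22336501) had the largest rise of the list, 1.78. The C-type lectin M4 rose by 1.65 and the C type lectin receptor A by 1.40, the latter without a value in HFD fish 3.

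**Figure D2:**
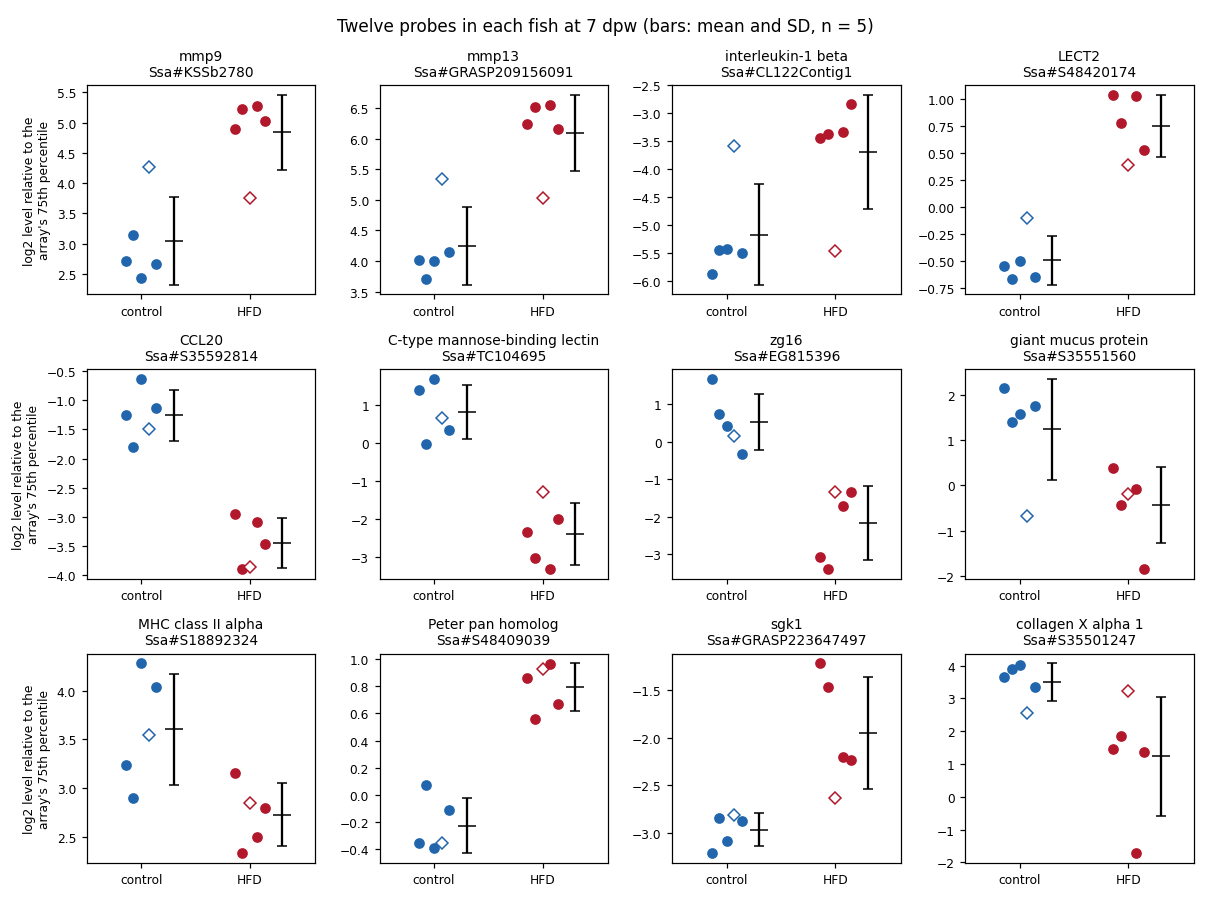
Level of 12 probes in each fish at 7 dpw, as log2 relative to the 75th percentile of the array, with control fish in blue, HFD fish in red, and mean and SD (n = 5) as bars. Open diamonds are HFD fish 3 and control fish 4, which lie towards the other group for mmp9, mmp13 and interleukin-1 beta and within their own group for CCL20. The y axes differ and do not start at 0.

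Of 10 phagocyte effectors, proteins of the oxidative burst and antimicrobial defence, 1 rose and none fell, and without HFD fish 3 and control fish 4 1 rose and 1 fell. The 5 probes for neutrophil cytosolic factors and cytochrome b-245, subunits of the NADPH oxidase, ranged from 0.05 to 0.32 and did not pass. Another subunit, p22phox (Ssa#CA048649), was 0.88 and did not pass either. Inducible nitric oxide synthase was -0.86 and did not pass with all fish, and it was the probe that fell without the pair (-1.83). Myeloperoxidase was -0.49 and did not pass, and the antimicrobial peptide cathelicidin rose by 0.82. The summed level of the list was 60.8 to 92.1 in HFD fish and 45.5 to 68.0 in control fish, as multiples of the 75th percentile. The part of these cells in the results above was not tested.

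Of 28 probes of the response to interferon and virus 2 rose and none fell, with 11 positive and 17 negative differences from -2.01 to 1.18 and a median of -0.08. Both that rose were for RSAD2, the antiviral enzyme viperin, at 1.08 and 1.18, and its other probe was 0.94 and did not pass. Leaving out HFD fish 3 and control fish 4 gave 0.87 and 0.91 for the former, with an unadjusted p of 0.066 and 0.064 in limma, so that no probe of the list passed.

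In the antigen presentation list, 6 of 7 probes had a negative difference. All 4 probes for MHC class II, which shows peptides to helper T cells, fell by 0.88 to 0.99, and beta-2 microglobulin, the partner of MHC class I, fell by 0.93, so that 5 of 7 probes fell and none rose. On the class II probe Ssa#S18892497 the HFD fish had 4.10, 3.78, 4.26, 3.71 and 3.93 and the control fish 5.35, 4.52, 5.45, 4.26 and 4.90. The highest HFD fish and the lowest control fish were both at 4.26, and the adjusted p was 0.110 in limma. Without HFD fish 3 and control fish 4, 5 of 7 probes also fell. Of the 2 class I probes, Ssa#DW006091 was near 1.30 and 1.44 in control fish 1 and 3 and at -5.49 or lower in every other fish, and neither passed.

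A T-cell antigen receptor probe (Ssa#S18892491) fell by 1.25, with levels of -1.35, -1.26, -1.89, -1.78 and -1.31 in HFD fish and 0.08, -0.80, -0.04, -0.36 and -0.22 in control fish. The groups were apart, with an adjusted p of 0.052 in limma. It was the only one of the 5 probes in the T cell list to pass. The other receptor chains in the list, T-cell receptor beta (-0.61) and TCR-gamma (-0.93), did not pass. The list also held the T-cell-originated protein kinase homolog (0.13) and myelin and lymphocyte protein (0.09), which were matched by name and are not receptor chains. Of 17 immunoglobulin probes, chains of antibodies, 1 fell, and it did not pass without HFD fish 3 and control fish 4. The median of the immunoglobulins was -0.59 with all fish and -0.16 without the pair.

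Mucus and granule proteins had the lowest median of all lists, -1.33, with 10 of 13 probes lower and 1 higher. All 8 probes for zymogen granule membrane protein 16 (zg16), a secreted lectin of mucous cells in the mammalian gut, fell by 0.93 to 2.71. On Ssa#EG815396 the HFD fish had -3.08, -3.40, -1.34, -1.73 and -1.35 and the control fish 1.68, 0.74, 0.40, 0.16 and -0.34. All HFD fish were lower, with a difference of -2.71 ± 0.50 (SE), 6.54-fold, and an adjusted p of 0.071 in limma.

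Giant mucus protein, a large mucin-like protein of fish skin, gave opposite results on its 2 probes. On Ssa#S35551560 the HFD fish had 0.38, -0.43, -0.20, -0.08 and -1.84 and the control fish 2.15, 1.39, 1.58, -0.68 and 1.75. Control fish 4 alone lay among the HFD fish, and the probe fell by 1.67 ± 0.56 (SE), adjusted p = 0.177 in limma. The other probe (Ssa#GRASP209734157) rose by 0.82. The large mucosal protein fell by 0.86, and mucin 5AC, a gel-forming mucin, was 0.15 and did not pass.

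Glycosylation enzymes, which build the sugar chains of mucins and other glycoproteins, fell in 4 of 11 probes and rose in 1. The summed level of the list, which bright probes dominate, went the other way. It was 50.1 to 77.8 in HFD fish and 33.2 to 52.8 in control fish. Both probes for beta-1,4-galactosyltransferase 1 fell, 1.94-fold and 2.14-fold. On Ssa#CA060511 control fish 4, at -2.92, was below all HFD fish, which had -2.22 to -2.01, while the other control fish had -0.98 to -0.46. GalNAc alpha 2,6-sialyltransferase (Ssa#S35568346) fell by 1.42 but was 0.32 higher in HFD on the shared slide, and its other probe (Omy#S34315435) was -0.16 and did not pass. Beta-1,3-glucosyltransferase fell by 2.08 and was one of the probes with control fish 1 far above, at 2.82 against 0.01 or less in the rest. Neither this probe (-2.04) nor Ssa#S35568346 (-1.43) met the limit on p when HFD fish 3 and control fish 4 were left out. The sialyltransferase of alpha-N-acetylgalactosaminide rose by 0.92.

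The collagen and matrix list, which also holds proteins of collagen processing, fell in 10 of 21 probes and rose in none, with a median of -0.58. Thrombospondin-1 (Ssa#S48403294), which is outside this list, rose by 1.03. The probes that fell were not for the main collagen of the dermis: the 6 probes for type I collagen ranged from -0.17 to 0.19 and did not pass. Collagen type X fell by 2.26 and 1.71, type XI by 1.95, type VII, which anchors the epidermis, by 1.35, and the collagen VI chain Col6a2 by 1.14. Procollagen C-endopeptidase enhancer 1, which aids the maturation of fibrillar collagen, fell by 2.33, matrix Gla protein, an inhibitor of calcification, by 2.11, laminin subunit beta-4 by 1.27 and fibronectin by 0.97.

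For type X collagen (Ssa#S35501247) the HFD fish had 1.46, 1.86, 3.22, -1.72 and 1.37 and the control fish 3.66, 3.88, 4.03, 2.55 and 3.35. HFD fish 4 was lowest by more than 3, and HFD fish 3 was inside the control range. The difference was -2.26 ± 0.76 (SE), adjusted p = 0.179 in limma. SOX-9, a transcription factor of cartilage and skeletal progenitors, fell on both probes by 1.08 and 1.23.

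In the epidermis, 1 of 10 probes rose and 3 fell (2 and 3 without HFD fish 3 and control fish 4). Keratin 18, of simple epithelia, rose by 0.97 with all HFD fish above all control fish, and keratin type I cytoskeletal 20 fell by 1.25. Epithelial cadherin, which joins epidermal cells, fell on both probes by 0.91 and 0.94, the former not without HFD fish 3 and control fish 4 (-1.09, past the limit on size but not that on p). Periplakin, of the cornified envelope in mammals, was 0.79 and just missed the criteria. The summed level of these epidermal probes was 147 to 228 in HFD fish and 147 to 165 in control fish. Transglutaminase 2 (Ssa#S35581768), which crosslinks proteins, rose by 2.17, with levels of 0.57, -0.53, -1.08, 0.42 and -0.48 in HFD fish and -1.80, -2.15, -2.12, -1.79 and -4.08 in control fish. All HFD fish were above all control fish, and control fish 5 was lowest by almost 2. The other transglutaminase 2 probe (Ssa#GRASP209153018) was 0.45 and did not pass.

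Epigen (Ssa#S35515922), a ligand of the epidermal growth factor receptor, rose by 2.65 or 6.29-fold, with levels of 4.57, 4.18, 2.13, 4.52 and 4.54 in HFD fish and 1.25, 0.50, 0.57, 3.27 and 1.07 in control fish. Here again, the groups overlapped only because control fish 4 lay above HFD fish 3. Heparin-binding EGF-like growth factor, a ligand of the same receptor, rose by 1.44. Heparin-binding growth factor 1 (Ssa#GRASP221222195) fell by 0.97, and proepiregulin (0.79) and connective tissue growth factor (0.44) did not pass. Vascular endothelial growth factor C, a factor of lymphatic vessels, rose by 1.05, and LYVE-1, a hyaluronan receptor of lymphatic vessels, by 1.15, both without overlap. The growth hormone receptor rose by 1.07 and leptin, a hormone of energy balance, by 1.28.

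Of 23 probes for cell division genes none rose and 2 fell at 7 dpw, the GINS subunit PSF3 by 2.37, which was one of the probes with control fish 1 far above, and DNA polymerase subunit delta-4 by 0.84. The 7 dpw median was 0.30, against -1.05 on day 3 and 0.41 on day 14. It was also negative in intact skin, -0.44, and at 1 dpw, -0.61. The effects at 7 and 3 dpw were set against each other in a limma fit of the 48 fish with intact skin or wounds at 1, 3, 7 and 14 dpw. The effect differed between 7 and 3 dpw for 89 probes after adjustment (0.681%), of which 80 were more positive at 7 dpw. Of these 89 probes 61 had no name, and 13 of the 28 with a name were cell division probes. Cell division probes were 23 of the 767 named probes tested. The names come from genes selected on these arrays, 3 dpw included, so this count is not independent evidence of a change between the days.

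Proliferating cell nuclear antigen, the sliding clamp of DNA polymerases, went from a difference of -1.05 at 3 dpw to 0.44 at 7 dpw, a change of 1.49 with an adjusted p of 0.0087. The 13 probes, which include mcm3, mcm4, mcm5, thymidylate synthase and a subunit of ribonucleoside-diphosphate reductase, changed by 0.96 to 1.77. Their differences were 0.14 to 0.62 at 7 dpw and none passed the criteria there. Genes of the same processes outside the list, origin recognition complex subunit 5 (1.67), Rpa2 (1.44) and dihydrofolate reductase (1.41), changed likewise. In a fit of the 4 groups of these days alone, no probe passed after adjustment, with 1711 at an unadjusted p under 0.05, and with slide as a block 115 passed.

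Among the 9 probes more negative at 7 dpw were both probes for C-X-C motif chemokine 10, an attractant of T cells, whose difference was 2.35 and 2.22 at 3 dpw but -0.73 and -0.70 at 7 dpw. Myeloperoxidase was 1.92 at 3 dpw and -0.49 at 7 dpw. Ammonium transporter Rh type B, which carries ammonia across epithelia, fell at 7 dpw by 2.18, with levels of -2.51, -2.22, -1.21, -2.06 and -1.71 in HFD fish and 1.07, 0.36, 0.55, -1.001 and 0.22 in control fish. All HFD fish were below all control fish. At 3 dpw its difference was -0.28, and the change of -1.90 had an adjusted p of 0.047 in limma. Neuropilin 1a, a receptor for vascular growth factors, fell at 7 dpw with a difference of -1.05, whereas its difference at 3 dpw was positive, 0.40.

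**Figure D3:**
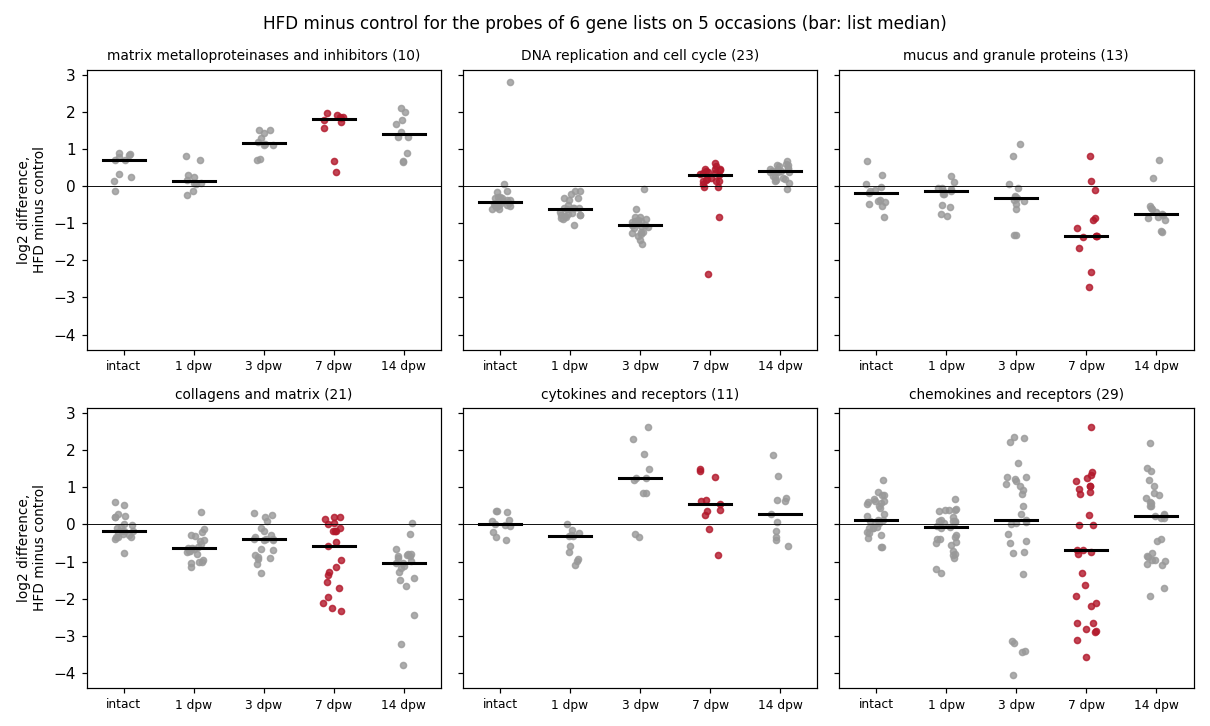
Log2 difference (HFD minus control) of each probe of 6 gene lists in intact skin (4 fish per group) and in wounds at 1, 3, 7 and 14 dpw (5 fish per group), with 7 dpw in red and the list median as a bar. Cell division genes have medians of -1.05 at 3 dpw and 0.30 at 7 dpw, and matrix metalloproteinases medians of 1.16, 1.81 and 1.39 at 3, 7 and 14 dpw.

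None of the lists held a probe whose effect differed between 7 and 14 dpw after adjustment. Over all probes 15 did (0.115%), 12 of them more negative at 7 dpw, but none with slide as a block (1159 at an unadjusted p under 0.05) and 1 in the fit of the 4 groups. Sorbitol dehydrogenase, of polyol metabolism, was -1.09 at 7 dpw and 0.67 at 14 dpw. 7-dehydrocholesterol reductase, the last enzyme of cholesterol synthesis, was -0.87 and 1.47. Matrix metalloproteinases had list medians of 1.16 at 3 dpw, 1.39 at 14 dpw, 0.14 at 1 dpw and 0.70 in intact skin, and no probe of theirs differed between 7 dpw and 3 or 14 dpw after adjustment. The collagen and matrix list had its lowest median at 14 dpw, -1.03.

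Of 12 probes in a list matched by name for glucocorticoids and cell stress, 3 rose and none fell. Sgk1, a kinase induced by glucocorticoids (Ssa#GRASP223647497), had -1.22, -1.47, -2.63, -2.21 and -2.23 in HFD fish and -3.21, -2.84, -3.08, -2.81 and -2.87 in control fish. All HFD fish were above all control fish, with a difference of 1.01 ± 0.25 (SE) and an adjusted p of 0.110 in limma. FK506-binding protein 5, a chaperone of the glucocorticoid receptor, rose by 1.04 and the steroidogenic acute regulatory protein, which brings cholesterol into mitochondria for steroid synthesis, by 1.31. TSC22 domain family protein 3, another glucocorticoid target, was -0.01. Both probes for pyruvate dehydrogenase kinase isozyme 2, which slows the entry of pyruvate into the citric acid cycle, rose by 1.57 and 1.94. Control fish 4, at 2.34 and 1.59, was far above the other control fish on both and above all HFD fish, and the differences were 2.46 and 3.09 when it and HFD fish 3 were left out.

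Mitochondrial energy genes had a median of -0.51, with 5 of 26 probes lower and 2 higher, the latter those of the kinase. Of those that fell, the mitochondrial initiation factor IF-2 (-3.06) was one of the probes with control fish 1 far above. Succinyl-CoA ligase subunit alpha, of the citric acid cycle, fell by 0.89, and alanine--glyoxylate aminotransferase 2, of amino acid metabolism, by 1.21. Of 5 chaperones 2 fell, thioredoxin domain-containing protein 9 by 1.27, again with control fish 1 highest, and a mitochondrial peptidyl-prolyl isomerase by 0.80. When HFD fish 3 and control fish 4 were left out, 3 mitochondrial energy probes rose, 3 fell and 1 chaperone fell. Succinyl-CoA ligase (-0.92), thioredoxin domain-containing protein 9 (-1.35) and the isomerase (-0.77) were then outside the criteria.

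Peter pan homolog (Ssa#S48409039), which takes part in ribosome assembly, was the fifth of the named probes to pass after adjustment. Its levels were 0.86, 0.56, 0.92, 0.96 and 0.67 in HFD fish and -0.35, 0.07, -0.39, -0.35 and -0.11 in control fish. No fish overlapped, and the difference of 1.02 ± 0.13 (SE) had an adjusted p of 0.038 in limma. Septin-7, a cytoskeletal protein of cell division, rose by 1.05 with an adjusted p of 0.052, and optineurin, an autophagy receptor, fell by 1.90 with 0.071.

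Coagulation factor V and antithrombin, which promote and restrain clotting, rose by 1.48 and 1.63, and coagulation factor IX fell by 1.21. Among genes with several probes, adenosine deaminase fell on 3 probes by 0.83 to 0.95 and gelsolin, which severs actin, on both probes by 1.37 and 1.65.

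Of the probes without a name, Ssa#DW552871 had the lowest adjusted p, 0.024, and rose by 1.89, with levels of -2.14, -3.02, -3.08, -2.97 and -2.74 in HFD fish and -4.81, -4.19, -4.90, -4.92 and -4.58 in control fish. The groups were more than 1 apart. Omy#S24139122 fell by 3.38 and was well above background in only 1 of 5 HFD fish but in all control fish. Ssa#S35552756 fell by 2.86 and Ssa#GRASP209732611 rose by 1.31, both without overlap.

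Markers of other tissues in the sample overlapped between the groups. Of 15 skeletal muscle probes 1 rose, telethonin by 1.02 (1.54 without the pair HFD fish 3 and control fish 4), and 1 fell, and the summed level was 15.6 to 27.9 in HFD fish and 19.1 to 25.7 in control fish. Blood markers had no probe past the criteria among 5, with sums of 3.74 to 18.4 and 6.78 to 16.02. Of 4 fat probes, that for adiponectin, a hormone of fat cells, fell by 1.05 and an adiponectin-like probe by 1.26. Perilipin (0.59) and the adipocyte fatty acid-binding protein (-0.46) did not pass. The sums of the fat probes were 7.06 to 14.0 in HFD fish and 8.16 to 13.3 in control fish. None of 6 nerve probes passed, with a median of 0.58 and sums of 81.4 to 126.2 in HFD and 36.5 to 85.0 in control fish, but 3 of the 6 rose, with a median of 0.85, when HFD fish 3 and control fish 4 were left out. The only pigment cell probe, Pmel, was 0.00. All marker probes were above background in some fish of both groups. The part of the tissue makeup in the other results was not tested.

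**Figure D4:**
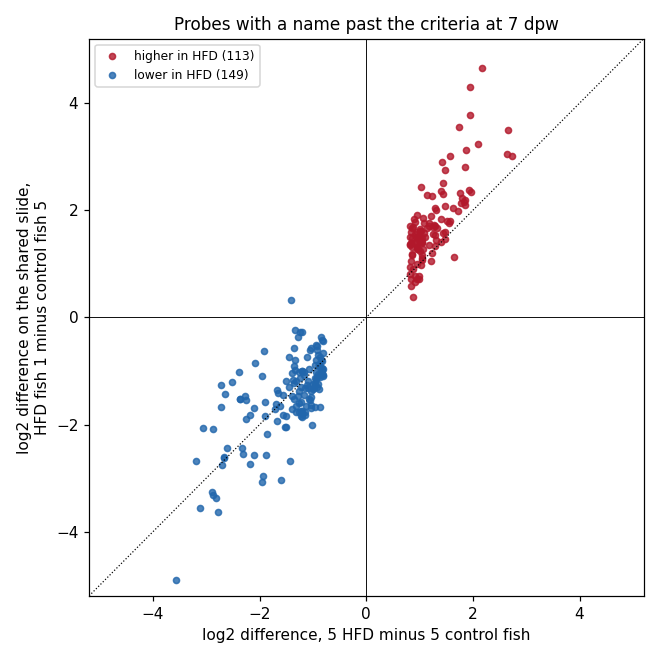
Log2 difference on the shared slide (HFD fish 1 minus control fish 5) against the difference between 5 HFD and 5 control fish, for the named probes past the criteria that were measured in both fish. Of these, 261 of 262 had the same direction in both, and the dotted line marks equal values. Both fish also belong to the groups on the x axis.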

How the data were processed

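RNA of 78 fish in 16 groups was hybridised to 79 single-colour Agilent arrays. The authors' scanner files hold processed signals, an intensity after the background step of Feature Extraction 12.0.1.1, and whether a spot is well above background. A table of processed intensities that the authors deposited was used as an alternative. Control spots and spots marked as outliers were left out, and log2 intensity minus the 75th percentile of the array was fitted with limma 3.58.1 in R 4.3.3, after a test on simulated data. Probes were tested when 5 or more of the 10 arrays had them well above background. Groups followed the labels. The criteria are those of the study, whose text names no test for the arrays.

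The genes and lists were chosen with earlier results of these arrays known, and wrongly matched names were removed from the lists after values were seen. Named were the probes past Benjamini-Hochberg, up to 3 in each direction per list by p, the genes that the study discusses for 7 dpw, and 4 probes without a name. The other genes named were chosen after their values were seen. Names came from the supplementary list, because 0 probe identifiers matched the reference table. Probes that share a gene were not averaged. Alternatives covered scaling, normexp (offset 50), the table of the authors, filters, samples in the fit, analysis of variance, slide, fish number and each fish left out. Fish numbers come from labels and do not pair fish. The columns of the list with fold changes were not used.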

Additional observations from a re-analysis of the deposited data

Results flagged for a closer look

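In 27 of 224 groups of 5 fish, over 22 of the named probes, 1 fish lay apart from the rest by more than Dixon's critical value for 5 values (a gap of over 0.71 of the range). Chance gives about 1 in 20 such groups. Probes for one gene share their fish, so the groups are not independent. No named probe chosen by the rule differed in effect between days after adjustment. Levels are log2 relative to the 75th percentile of the array, and no explanation was tested.

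HFD fish 3 lay below the other HFD fish on 10 probes, 7 of them for matrix metalloproteinases. Its level was 3.75, -1.58 and -4.80 on mmp9 probes Ssa#KSSb2780, Ssa#CL17Contig1 and Ssa#DW472976. On the mmp13 probes Ssa#GRASP209156091, Ssa#AJ424540 and Ssa#S31997300 it was 5.03, 4.84 and -0.0784, and on the unnumbered matrix metalloproteinase Ssa#S25807320 it was 0.0203. It was -5.47 for interleukin-1 beta, -3.86 for the IL-6 subfamily member M17 and -4.35 for leukotriene B4 receptor 1.

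Control fish 4 lay towards the HFD fish on most of its probes. It was above the other control fish at -0.86 for mmp9 (Ssa#CL17Contig1), at 5.34, 5.19 and 0.28 for mmp13 (Ssa#GRASP209156091, Ssa#AJ424540 and Ssa#S31997300), at -3.59 for interleukin-1 beta, at -0.10 for LECT2 (Ssa#S48420174), and at 2.34 and 1.59 on the probes Ssa#GRASP223649111 and Ssa#TC103002 for pyruvate dehydrogenase kinase isozyme 2. It was below them at -2.92 and -3.30 on the probes Ssa#CA060511 and Ssa#EG770395 for beta-1,4-galactosyltransferase 1, at 0.35 for adapter protein CIKS and at -0.68 for giant mucus protein (Ssa#S35551560).

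HFD fish 5 was apart on 3 probes, at 3.58 for beta-2 microglobulin, -1.72 for keratin type I cytoskeletal 20 and 0.53 for the erythroid 5-aminolevulinate synthase. Control fish 3 was low at 0.59 for leukotriene A-4 hydrolase, and control fish 1 was high at 2.60 for thioredoxin domain-containing protein 9.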

How the results depend on the processing

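The number of probes past the criteria was 567 and lay between 468 and 639 under all alternatives that kept all 10 fish, except normexp, which gave 295. It was 429 to 672 when each fish was left out, and 799 without HFD fish 3 and control fish 4. The share higher in HFD, 36.0%, was 31.3% to 49.5% with each fish left out (highest without control fish 3), 50.3% without HFD fish 3 and control fish 4, 68.9% with slide as a fixed block, and 48.3% with slide as a fixed block among all 16 groups. The cause was not tested. The 11 probes past Benjamini-Hochberg in limma became 0 to 122 with each fish left out (122 without control fish 4, 78 without HFD fish 3, 0 without HFD fish 4, control fish 3 or control fish 5), 297 without HFD fish 3 and control fish 4, 18 with median centring, 1 with the table of the authors, 3 with no filter, 120 with all 16 groups in one fit, 62 when slide was added to that fit, 1 with analysis of variance and 0 with slide as a fixed block (594 at an unadjusted p under 0.05). With fish number as a replicate block 0 passed after adjustment (1948 at an unadjusted p under 0.05), and 558 passed the criteria. Deviations of same-numbered fish correlated at -0.29 to 0.10, and 1 of 5 HFD fish correlated best with its own number, so the fish share only a number. Probes without overlap numbered 571, and 379 with the table of the authors. The 89 probes that differed between 7 and 3 dpw became 0 in the fit of the 4 groups of these days. The 15 between 7 and 14 dpw became 9 with quantile normalization, 1 in the fit of 4 groups and 0 with slide as a block. Single probes were followed through the alternatives only for the 112 chosen by the naming rule, of which 91 passed. The other named probes that passed, of 265 in all, were not followed in this way. Of the 91, 90 kept their direction under all alternatives, and GalNAc alpha 2,6-sialyltransferase turned to 0.32 with slide as a fixed block. Only 19 of the 91 kept their call under all alternatives. With slide as a fixed block 27 still passed, with slide added to the fit of all 16 groups 55, and when each fish was left out 61 passed every time. Normexp took 12 of them below the criteria. Among the 10 arrays of 7 dpw, the slides other than the shared one hold 1 group each. Within these arrays, most of the comparison therefore cannot be told apart from slide. Arrays of other days lie on the same slides and enter only the fits with more groups. Leaving out HFD fish 3 and control fish 4, keeping outlier spots and adding slide to the 16 groups were chosen after seeing the data.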
